A study of Mus musculus with 12 samples.

Results

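The transcription factor genes Dlx1, Dlx2, Dlx5, Dlx6, Sp8 and Sp9 were examined in brain RNA of 12 male mice. The samples are described as whole brain, but some of the marker genes given below go against this for every library. These 6 genes were chosen by name, out of 55385 genes in the expression table, after their FPKM, a level of fragments scaled to transcript length and to the mapped fragments of a library, had been seen to be higher in the MS_O group than in the C_O group. They were therefore selected on the MS_O minus C_O difference, and their values in that comparison are given as a description without a test. All 6 genes passed the filter on low values, a mean FPKM of 0.1 or more, which left 21393 genes to be tested. The mice were wild-type males of the strain labelled C57/BL6J (C57BL/6J), 8 weeks old when purchased, and 3 of the 8 mice of each group were sequenced, with 1 library of poly(A) RNA from each mouse. C_W mice were given water, C_O mice krill oil for 5 weeks at a daily dose of 200 mg/kg, MS_W mice water and chronic unpredicted mild stress (CUMS) for 4 weeks, and MS_O mice krill oil and CUMS together. Library MS_O46, for example, is that of mouse 46 of the MS_O group.

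Dlx genes encode homeodomain factors that act in the ventral telencephalon of the embryo, where they specify GABAergic neurons and promote their migration. In the adult brain they remain on in neuroblasts that move from the subventricular zone along the rostral migratory stream, and in the interneurons of the olfactory bulb that these neuroblasts become. Sp8 and Sp9 encode zinc finger factors of the same lineage, and both are needed for olfactory bulb interneurons to form and mature. Dlx1, Dlx2, Dlx5 and Dlx6 lie in convergent pairs, and each pair is accompanied by non-coding transcripts from the opposite strand. Genes of this set, Dlx6 and Sp9 among them, are also known in the striatal lineage, so they are not particular to the olfactory bulb. Because the samples were tissue and not single cells, fewer cells of a type and less RNA per cell cannot be told apart.

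On the mm10 build, Dlx1 lay at chr2:71528113-71533980 on the plus strand and Dlx2 at chr2:71543408-71546754 on the minus strand, 9.43 kb apart. Dlx6 lay at chr6:6863334-6868568 on the plus strand and Dlx5 at chr6:6877805-6882085 on the minus strand, 9.24 kb apart. Sp9 lay on the same chromosome as Dlx1, at chr2:73271925-73284706, and Sp8 at chr12:118846329-118852576, both on the plus strand. RefSeq promoter sequences (GRCm38.p6) were found for 4 of the 6 genes, and none for Dlx5 and Dlx6. The 250 bases before the start are shown for Dlx2, Sp8 and Sp9. The window of Dlx1 lay wholly within an annotated exon and is not printed. Sp8 has 3 starts, and the windows before its first and its second start are given, since 21 bases of the window before the third lie in an annotated exon. Capitals mark 3 motifs on either strand, none of which overlapped another. These are the CCAAT box, the motif GGGCGG, which is bound by Sp factors and is known as the GC box, and the motif TATAAA, known as the TATA box.
Dlx2, chr2:71546755-71547004, minus strand: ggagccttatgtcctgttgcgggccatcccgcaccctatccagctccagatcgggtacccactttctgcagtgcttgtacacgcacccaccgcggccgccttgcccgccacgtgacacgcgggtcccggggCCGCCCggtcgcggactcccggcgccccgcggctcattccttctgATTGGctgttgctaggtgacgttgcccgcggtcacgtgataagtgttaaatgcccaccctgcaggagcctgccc
Sp9, chr2:73271676-73271925, plus strand: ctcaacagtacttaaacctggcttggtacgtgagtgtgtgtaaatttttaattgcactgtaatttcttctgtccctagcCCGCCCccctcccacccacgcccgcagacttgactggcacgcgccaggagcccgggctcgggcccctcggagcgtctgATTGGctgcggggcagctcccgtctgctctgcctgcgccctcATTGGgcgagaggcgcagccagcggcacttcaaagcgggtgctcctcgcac
Sp8, second start, chr12:118846983-118847232, plus strand: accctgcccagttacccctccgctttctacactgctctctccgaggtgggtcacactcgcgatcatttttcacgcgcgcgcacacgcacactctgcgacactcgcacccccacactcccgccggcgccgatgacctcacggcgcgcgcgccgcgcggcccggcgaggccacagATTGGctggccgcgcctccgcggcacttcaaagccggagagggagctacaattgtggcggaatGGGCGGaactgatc
Sp8, first start, chr12:118846079-118846328, plus strand: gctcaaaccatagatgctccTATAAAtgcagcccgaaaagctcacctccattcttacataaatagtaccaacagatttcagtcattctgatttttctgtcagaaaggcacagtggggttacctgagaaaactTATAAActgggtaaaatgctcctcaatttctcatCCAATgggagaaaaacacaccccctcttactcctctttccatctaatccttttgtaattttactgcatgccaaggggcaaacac

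Of the 6 windows of these genes, those not printed included, 4 held at least 1 CCAAT box, which 33.8% of 32851 promoter windows of the same length held, and the windows of Dlx1 and of the third start of Sp8 held none. The windows of Dlx2, Sp9 and the second start of Sp8 also held 1 GC box each, as 32.7% of all windows held at least 1, and no TATA box, which 12.4% held. Their GC contents were 66.4%, 62.4% and 67.2%, and the median of all windows was 52.4%. The window before the first start of Sp8 was at 40.8% GC and held 2 TATA boxes. The homeodomain core TAATTA was in 1 of the 6 windows, that of the third start of Sp8, and 4.84% of all windows held it. A run of 15 bases, gcggcacttcaaagc, was shared by the windows of Sp9 and of the second start of Sp8. It began 30 bases before the start of Sp9 and 58 bases before that of Sp8, and no other of the 32851 windows held it on either strand. This run was found after the sequences had been compared, and such matches describe letters only.

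The libraries held between 50912906 and 75678721 estimated counts, and no pair of libraries was identical. In 2 libraries, C_O72 and MS_W95, the profile was unlike that of the rest. Their r with each other over all tested genes was 0.970 and with the other libraries at most 0.937, while the lowest r among the other 10 was 0.959. The general brain gene Snap25, which encodes a synaptic vesicle fusion protein, was present in every library at 242 to 421 FPKM. Other general brain genes were less even. In C_O72 and MS_W95 Syt1 was at 34.7 and 62.1 FPKM, against 160 to 231 in the other 10 libraries. Aqp4 was higher in C_O72 and MS_W95, at 34.0 and 44.3 against 8.57 to 18.9. Fezf2, a marker of deep cortical projection neurons, was at 0.04 in C_O72 and 0.02 in MS_W95, against 0.60 to 15.05 FPKM in the other 10. Cbln3, a marker of cerebellar granule cells, was at 60.9 and 222 FPKM there and at most 0.20 elsewhere. Gabra6 and Pcp2, also cerebellar, were at most 0.13 and 0.21 FPKM in those other 10 libraries, so these 3 cerebellar markers were near 0 in 10 libraries and Fezf2 in the other 2. Of the 5 cerebellar genes listed, Cbln1 and Zic1 were not near 0 in the 10 libraries, at 0.85 to 13.95 and 2.59 to 11.5 FPKM. Group comparisons of the 6 genes are given for 12 libraries and for the 10 libraries without C_O72 and MS_W95.

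Dlx1, the most abundant of the 6 genes by mean FPKM, varied widely within every group. Its FPKM was 11.6, 11.6 and 4.10 in C_W1, C_W64 and C_W70, 4.10, 6.49 and 0.10 in C_O15, C_O30 and C_O72, 12.9, 9.72 and 0.12 in MS_W31, MS_W75 and MS_W95, and 7.25, 31.7 and 28.9 in MS_O13, MS_O46 and MS_O78. MS_O46 and MS_O78 were the highest of all libraries, C_O72 and MS_W95 were close to 0, and MS_O13 lay within the range of C_W and of MS_W. The group means were 9.09 ± 4.32 for C_W, 3.56 ± 3.23 for C_O, 7.57 ± 6.64 for MS_W and 22.6 ± 13.4 for MS_O (SD, n = 3 each). Dlx2, which acts redundantly with Dlx1 in GABAergic progenitors, was at 5.79, 5.41 and 1.74 FPKM in C_W, 1.94, 2.86 and 0.0001 in C_O, 7.58, 5.89 and 0.04 in MS_W and 3.84, 17.0 and 20.8 in MS_O, in the same order of mice. The value of 0.0001 is what the table lists for a gene without an estimate. The order of the libraries was close to that of Dlx1, with MS_O78 rather than MS_O46 as the highest. Mean Dlx2 was 4.31 ± 2.24 FPKM for C_W, 1.60 ± 1.46 for C_O, 4.50 ± 3.96 for MS_W and 13.9 ± 8.89 for MS_O.

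Dlx5 and Dlx6, which act downstream of Dlx1 and Dlx2 in the same lineage, were again highest in MS_O46. Dlx5 was at 5.48, 5.39 and 1.94 FPKM in C_W, 2.30, 3.87 and 0.0001 in C_O, 9.44, 6.95 and 0.01 in MS_W and 4.86, 16.0 and 11.3 in MS_O. Dlx6 was at 3.47, 3.9 and 2.14 FPKM in C_W, 1.95, 2.27 and 0.0001 in C_O, 7.34, 7.92 and 0.02 in MS_W and 5.36, 10.7 and 8.98 in MS_O. MS_W31 and MS_W75 were above all 3 C_W libraries for both genes, whereas MS_W95 was below them. The means of Dlx6 were 3.17 ± 0.92 for C_W, 1.41 ± 1.23 for C_O, 5.09 ± 4.4 for MS_W and 8.34 ± 2.71 for MS_O, and those of Dlx5 were 4.27 ± 2.02, 2.06 ± 1.95, 5.47 ± 4.89 and 10.7 ± 5.59 in the same order of groups.

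Sp8 had the widest range of the 6 genes. It was at 3.78, 3.65 and 0.80 FPKM in C_W, 0.47, 1.85 and 0.12 in C_O, 5.08, 2.95 and 0.02 in MS_W and 2.62, 13 and 11.4 in MS_O. Over the 10 libraries without C_O72 and MS_W95 it spanned 27.8-fold, from C_O15 to MS_O46, against 5.48-fold for Dlx6, 7.73-fold for Dlx1, 8.22-fold for Dlx5, 11.2-fold for Sp9 and 11.9-fold for Dlx2. Sp9 was at 2.39, 2.19 and 0.72 FPKM in C_W, 0.91, 1.42 and 0.04 in C_O, 4.07, 3.10 and 0.06 in MS_W and 2.29, 7.69 and 8.06 in MS_O. In estimated counts the lowest value of any of the 6 genes in those 10 libraries was 169, for Sp8 in C_O15, and the highest was 10939, for Dlx1 in MS_O46. In C_O72 and MS_W95 the 6 genes had 0 to 47 estimated counts.

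MS_O had the highest and C_O the lowest mean of every one of the 6 genes. C_W was the second for Dlx1 and Sp8, and MS_W was the second for Dlx2, Dlx5, Dlx6 and Sp9. No 2 neighbouring groups in these orders were separated, since their ranges overlapped for all 6 genes.

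**Figure D1:**
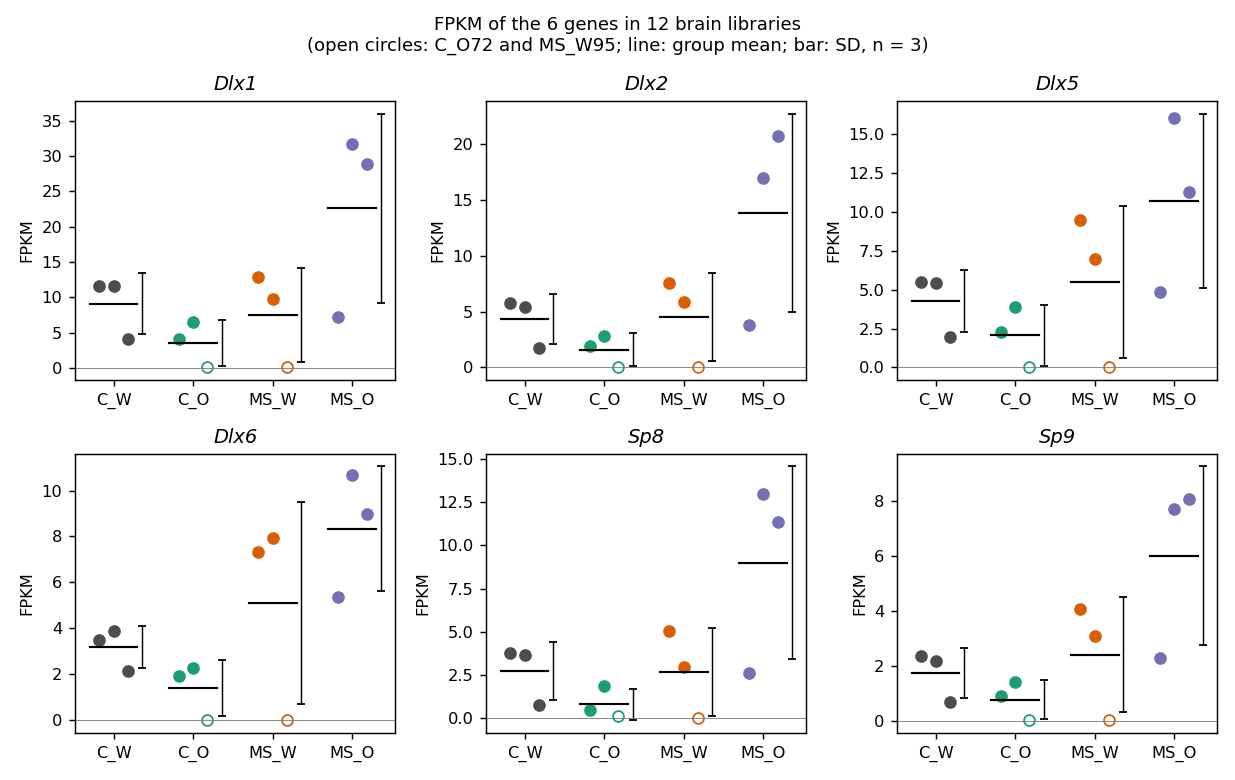
FPKM of each gene (y axis) in the 3 libraries of each group (x axis), with the group mean as a line and the SD as a bar beside it. Open circles are C_O72 and MS_W95, which lie near 0 for all 6 genes, and the 2 highest points of MS_O are MS_O46 and MS_O78.

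The C_W vs. MS_W comparison addressed the effect of CUMS without krill oil, and it was the comparison that the choice of genes had not used. None of the 6 genes passed an adjusted p of 0.05 in it. The fit was made with limma on log2(FPKM + 1) over all 4 groups, and p was adjusted over 21393 genes by the Benjamini-Hochberg method. Dlx1 was lower in MS_W by a log2 fold change of -0.76 ± 1.01 (SE), with a limma adjusted p of 0.781. Dlx2 was at -0.32 ± 0.87, Dlx5 at -0.18 ± 0.87, Dlx6 at 0.05 ± 0.75, Sp8 at -0.23 ± 0.73 and Sp9 at 0.08 ± 0.61, with limma adjusted p between 0.897 and 0.985. The median of the 6 genes was -0.21 and that of all tested genes 0.06. At an unadjusted p of 0.05, 0 of the 6 genes and 2245 of the 21393 passed. A single gene, or 0.00467% of those tested, passed the adjusted threshold, and this was Doc2b, named after its value was seen. By the criteria of the study, here an unadjusted p under 0.05 and a ratio of group means past 2-fold, 0 of the 6 genes were higher and 0 were lower, against 2.5% higher and 2.1% lower of all tested genes. The groups did not overlap for 0 of the 6 genes and for 24.6% of all genes.

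These differences depended on single libraries. The value of each gene was highest without MS_W95, and Dlx6 and Sp9 turned negative without MS_W31, without MS_W75 or without C_W70. Without C_O72 and MS_W95 the log2 fold changes were all positive, at 0.39 ± 0.62 for Dlx1, 0.64 ± 0.63 for Dlx2, 0.88 ± 0.49 for Dlx5, 1.07 ± 0.27 for Dlx6, 0.52 ± 0.66 for Sp8 and 0.78 ± 0.46 for Sp9. The median of the 6 genes was then 0.71, against 0.04 for all genes. Dlx6 came nearest to the threshold, with a limma adjusted p of 0.116, and the adjusted p of the other genes lay between 0.438 and 0.810. When MS_W95 alone was left out, the log2 fold change of Dlx6 was the same, with an SE of 0.47 and a limma adjusted p of 0.539. Mean Dlx6 was 7.63 FPKM in the remaining 2 MS_W libraries and 3.17 in C_W, and this gene was the only one of the 6 to meet the criteria of the study as higher, as 3.49% of all genes then did. Dlx2, Dlx5, Dlx6 and Sp9 did not overlap between 2 MS_W and 3 C_W libraries, a separation that 38.8% of all genes showed. In the same 10 libraries 246 genes passed the adjusted threshold, and none of the 6 genes was among them.

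The C_O vs. MS_O comparison addressed CUMS in mice that were given krill oil. Since the 6 genes were selected on this difference, it is described and not tested. The mean was higher in MS_O for every gene, by 6.35-fold for Dlx1, 8.68-fold for Dlx2, 5.20-fold for Dlx5, 5.93-fold for Dlx6, 11.1-fold for Sp8 and 7.61-fold for Sp9. On the log2(FPKM + 1) scale the differences were 1.92 to 2.53, with a median of 2.22, while the median of all genes was 0.03. For all 6 genes the lowest MS_O library lay above the highest C_O library, as 12.2% of all genes did in either direction. The gap was narrow. MS_O13 had 7.25 FPKM of Dlx1 where C_O30 had 6.49, and 2.62 FPKM of Sp8 where C_O30 had 1.85, so the fold changes were carried by MS_O46 and MS_O78 on the high side and C_O72 on the low side. Without C_O72 and MS_W95 the ratios of means were 3.47 to 7.76, and the 6 genes were still separated between 3 MS_O and 2 C_O libraries, as 26.8% of all genes were.

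The other comparisons share a group with that difference and are also described without a test. In the C_W vs. C_O comparison the 6 genes were lower in C_O, with log2 fold changes from -1.42 for Dlx1 to -0.65 for Sp9, and their groups overlapped, while 9.42% of all genes did not overlap. Without C_O72 and MS_W95 these values were smaller, from -0.74 for Sp8 to -0.30 for Sp9. In the MS_W vs. MS_O comparison the genes were higher in MS_O by 1.10 for Dlx6 to 1.86 for Dlx1, and the groups again overlapped for all 6 genes, against 12.3% of all genes that did not. Without C_O72 and MS_W95 Dlx6 was 0.07 ± 0.27 higher in MS_O and Dlx5 0.23 ± 0.49, while Sp8 remained 0.80 ± 0.66 higher.

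**Figure D2:**
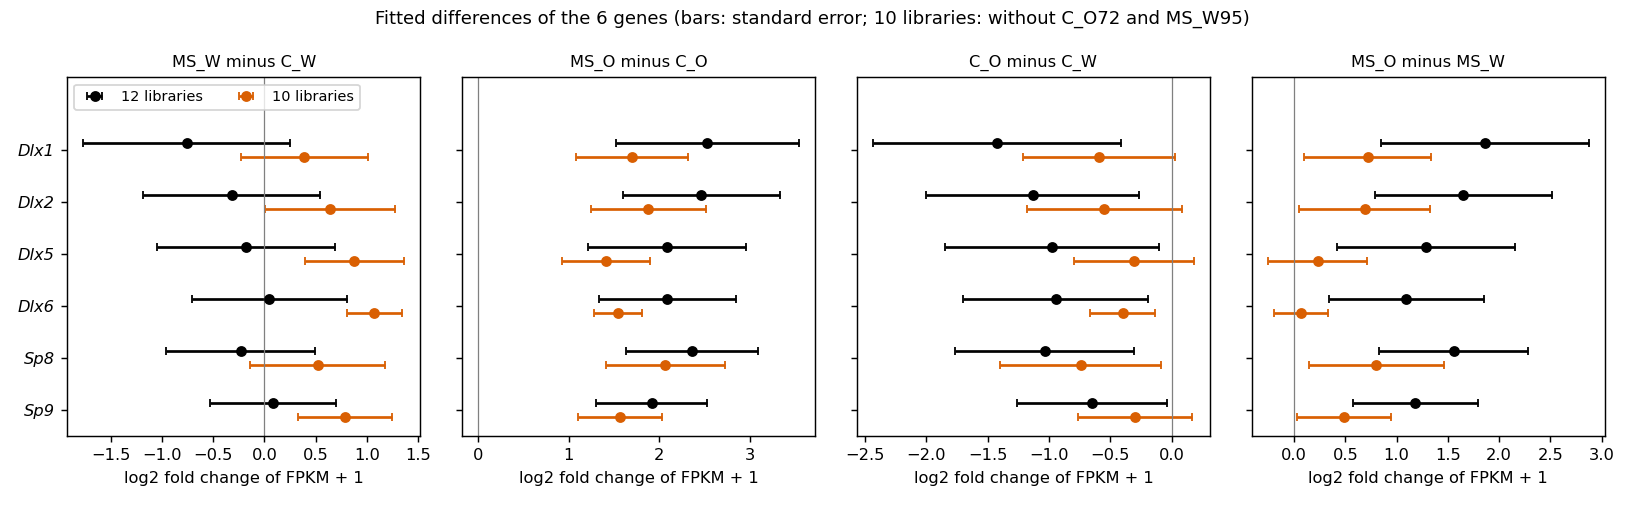
Log2 fold change on the FPKM + 1 scale (x axis) with its standard error for the 6 genes (y axis) in 4 comparisons, for 12 libraries and for 10 libraries. In MS_W minus C_W the values lie on either side of 0 with 12 libraries and above 0 with 10, and in MS_O minus C_O they lie above 0 in both.

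The 6 genes varied together from mouse to mouse. Over 12 libraries the Pearson r of log2(FPKM + 1) between any 2 of them was 0.907 to 0.989 (median 0.967) and Spearman's rho 0.909 to 0.993, and over the 10 libraries r was 0.852 to 0.991. These correlations describe libraries that share the 4 groups and carry no p. The choice of the genes as higher in MS_O than in C_O can itself raise them. With 12 libraries the values near 0 in C_O72 and MS_W95 add to them. The summed FPKM of the 6 genes ran from 11.4 in C_W70 and 11.7 in C_O15 to 89.3 in MS_O78 and 96.0 in MS_O46, and it was 0.25 in C_O72 and 0.28 in MS_W95. The share of each gene in the sum varied less. Dlx1 made up 26.6% to 36% of the sum over the 10 libraries, Sp9 6.27% to 9.03% and Dlx6 10.1% to 21.7%. Dlx1 was at 34.6% to 36% in the C_W and C_O libraries, 26.6% to 27.8% in MS_W31, MS_W75 and MS_O13, and 32.4% and 33.0% in MS_O78 and MS_O46.

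**Figure D3:**
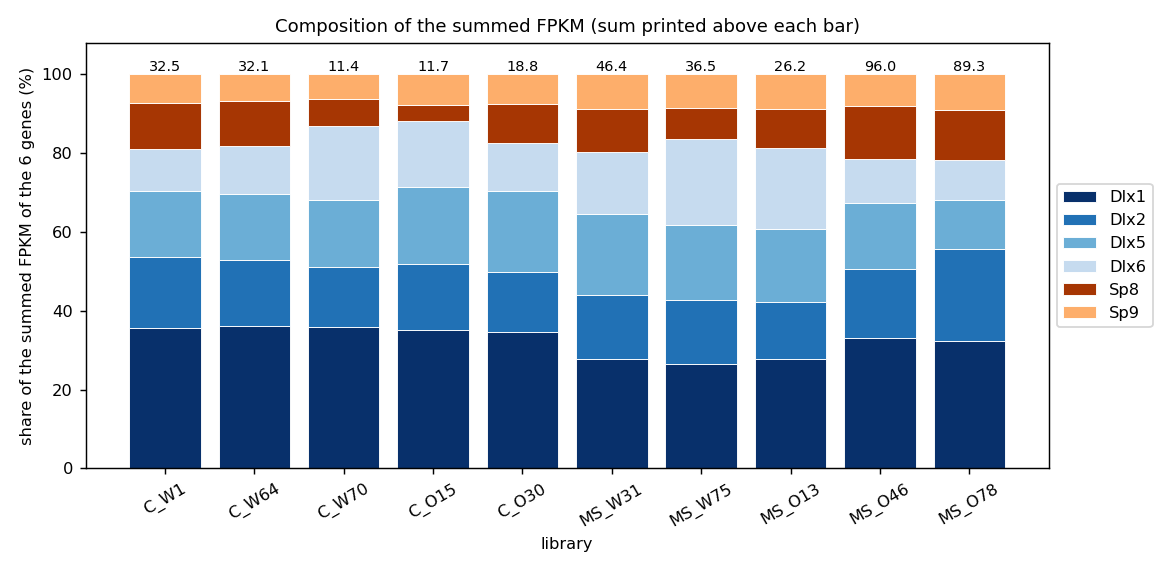
Share of each gene in the summed FPKM of the 6 genes (y axis, percent) in 10 libraries (x axis), with the sum above each bar. Dlx1 is the largest share in every bar, and Sp8 ranges from 4.0% in C_O15 to 13.5% in MS_O46.

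Sp8 and Dlx6 departed most from this common pattern. The ratio of Sp8 to Dlx6 was 0.24 in C_O15, 0.37 in C_W70, 0.37 in MS_W75 and 0.49 in MS_O13, and it was 1.09 in C_W1, 1.22 in MS_O46 and 1.26 in MS_O78. Cdhr1, a cadherin of mitral and tufted cells, the projection neurons of the olfactory bulb, was at 0.50 FPKM in C_O15 and 1.75 in C_W70, where the share of Sp8 was 4.0% and 6.96%, and at 86.5 and 83.7 in MS_O46 and MS_O78, where it was 13.5% and 12.7%. Dlx6 had its largest shares in MS_W75 (21.7%) and MS_O13 (20.5%). Drd2, the dopamine receptor of indirect pathway neurons of the striatum, was at 32.2 and 21.2 FPKM in these libraries, among the 3 highest values, but at only 1.87 in C_W70, where the share of Dlx6 was 18.7%.

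**Figure D4:**
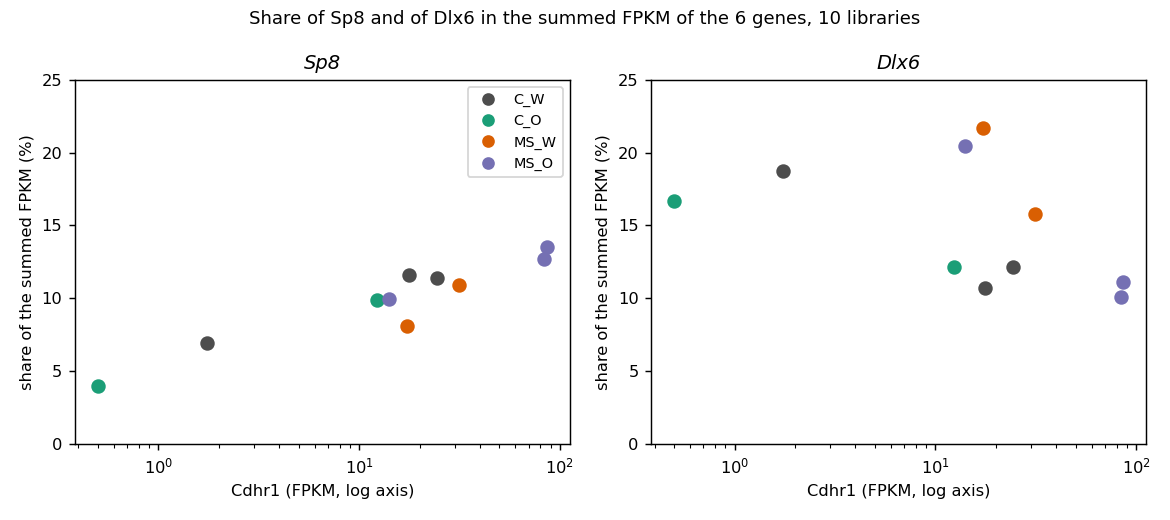
Share of Sp8 and of Dlx6 in the summed FPKM of the 6 genes (y axes, percent) against the FPKM of Cdhr1 (x axes, log scale) in 10 libraries, coloured by group. Sp8 runs from 4.0% at the lowest to 13.5% at the highest Cdhr1, and the lowest shares of Dlx6, 10.1% to 12.2%, include those of MS_O46 and MS_O78.

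The transcripts from the opposite strand followed their partners unequally. Dlx6os1, also called Evf2, a non-coding RNA that overlaps the Dlx6 gene, was at 4.48, 4.24 and 2.10 FPKM in C_W, 2.65, 3.47 and 0.04 in C_O, 7.35, 5.49 and 0.04 in MS_W and 3.48, 10.6 and 6.38 in MS_O. It shared no exon bases with Dlx6 in GENCODE M21, and it was the gene nearest in pattern to Dlx5 (r = 0.990, 12 libraries). Dlx1as, antisense to Dlx1, spanned only 2.14-fold over the 10 libraries, at 1.80 to 2.23 in C_W, 2.62 and 1.9 in C_O15 and C_O30, 2.53 and 1.58 in MS_W31 and MS_W75 and 1.44 to 3.08 in MS_O, and it was at 0.0001 and 0.05 in C_O72 and MS_W95. It shared 335 exon bases with Dlx1, or 6.21% of the exon bases of Dlx1, Dlx6os2 shared 4.38% of those of Dlx6, and Cir1 5.35% of those of Sp9. Whether the counting used strand is not stated, so reads in these bases cannot be assigned with certainty. The coordinates of Dlx1 in GENCODE M21 also differed from those of the expression table, unlike those of the other genes of the set. Of the other Dlx genes, Dlx3 did not reach the expression filter and Dlx4 was at most 0.37 FPKM.

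Sp7, a zinc finger factor best known from osteoblasts, was the only one of the 6 tested other Sp family genes to meet the study criteria in MS_O minus C_O. It was at 3.89, 3.56 and 0.37 FPKM in C_W, 0.31, 1.77 and 0.47 in C_O, 4.37, 2.68 and 0.50 in MS_W and 1.98, 13.3 and 9.82 in MS_O, and it spanned 42.9-fold over the 10 libraries. The ubiquitous family members Sp1 and Sp3 were at 2.01 to 4.48 and 4.39 to 6.47 FPKM over all 12 libraries. Genes next to the 6 genes in the genome mostly varied less. The 2 nearest tested genes on each side gave 16 neighbours once the 6 genes and their antisense partners were set aside, of which 15 spanned less than 5-fold over the 10 libraries, with a median of 1.68-fold. Metap1d, which ends 2.92 kb before Dlx1, ran from 2.70 to 6.51 FPKM, and Ola1, which ends 53.0 kb before Sp9, from 22.9 to 29.1. The exception was Tac1, the gene of the striatal peptide substance P, which lies 673 kb beyond Dlx5 and spanned 13.8-fold.

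Other regulators of olfactory bulb interneurons lay in the same direction as the 6 genes. In MS_O minus C_O all 13 of the list had a positive log2 fold change, with a median of 1.23, and 7 met the study criteria as higher, among them Sall3, Meis2, Sall1, Pbx3, Tshz1 and Prokr2. Without C_O72 and MS_W95 the median was 0.84 and 7 met them, with Pax6 among them. Of all tested genes 2.82% met the criteria as higher and 0.753% as lower in this comparison with 12 libraries. Without C_O72 and MS_W95, 683 of the 21393 tested genes met them as higher and 233 as lower. Since this comparison chose the 6 genes, its counts here and below are a description. The lists were chosen with earlier results of these data known, so their counts in MS_W minus C_W are a description as well. Tshz1, needed for new interneurons to leave the migratory stream, was at 11, 10.7 and 3.28 FPKM in C_W, 3.77, 6.55 and 3.92 in C_O, 12.8, 9.52 and 4.19 in MS_W and 7.12, 29.1 and 24.6 in MS_O. In MS_W minus C_W none of the 13 met the criteria and the median was 0.11, and Vax1 and Gsx2 met them without C_O72 and MS_W95. Of 6 tested genes of neuroblasts and dividing cells, Dcx and Igfbpl1, both of migrating neuroblasts, met the criteria in MS_O minus C_O, and Cd24a as well without C_O72 and MS_W95. None of the 6 did in MS_W minus C_W with 12 libraries, and Top2a and Cd24a did with 10. Dcx was at 1.85 to 2.74 FPKM in C_O15 and C_O30 and 3.46 to 9.89 in MS_O. Top2a, a gene of dividing cells, was at most 0.30 FPKM in any library, and Mki67 did not reach the filter.

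The markers of mature olfactory bulb cells that met the study criteria in MS_O minus C_O were highest in MS_O46 and MS_O78, except Reln, which was highest in MS_W95 at 7.01 FPKM. The criteria had picked these genes as high in MS_O. Of the other listed markers, Calb2, Tpbg and Frzb were also highest in MS_O46 and MS_O78, and Calb1, Gad2, Slc32a1 and Tbr1 were not. Calb1 had its lowest values there, at 7.84 and 13.2 FPKM, and Tbr1 was at 10.9 and 13.4 against 29.3 in C_O15. Among 10 genes of GABA neurons and olfactory bulb interneurons, 5 met the study criteria as higher in MS_O minus C_O (Th, Trh, Gng4, Synpr and Gad1), with a list median of 1.70, and 7 did without C_O72 and MS_W95, Calb2 and Tpbg being the others. Th, which makes dopamine in periglomerular cells, was at 56.6 and 64.9 FPKM in MS_O46 and MS_O78, 10.5 in MS_O13 and 0.84 to 5.07 in C_O. Gng4, a G protein subunit of granule cells, was the gene nearest in pattern to Sp8 (r = 0.991). Of 7 genes of olfactory bulb projection neurons, which do not belong to the Dlx lineage, 6 met the criteria as higher in MS_O. These were Tbx21, Cdhr1, Doc2g, Eomes, Reln and Lbhd2, and 6 did so without C_O72 and MS_W95. The list median was 2.22 with 12 libraries, the same as that of the 6 genes. Without C_O72 and MS_W95 it was 2.20, while that of the 6 genes was 1.63. Of 3 genes of the olfactory nerve layer, Stoml3 and Omp met them with 12 libraries and Omp with 10. Omp, the marker of olfactory sensory axons, was at 3.68, 21.9 and 31.5 FPKM in MS_O and 0.13, 4.96 and 0.45 in C_O. In MS_W minus C_W, by contrast, none of the 7 projection neuron genes and 1 of the 10 GABA and interneuron genes (Gad2) met the criteria, and without C_O72 and MS_W95 3 of the 10 did (Gad2, Tpbg and Slc32a1).

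The mean log2(FPKM + 1) of the projection neuron list was 4.28 and 4.38 in MS_O46 and MS_O78, 2.73 in MS_O13, 2.83, 3.29 and 1.47 in C_W, 1.25, 2.36 and 1.00 in C_O and 3.29, 2.72 and 1.44 in MS_W. That of the 6 genes was 3.96, 3.85 and 2.35 in the same MS_O libraries, 2.55, 2.53 and 1.44 in C_W, 1.45, 1.94 and 0.06 in C_O and 3.05, 2.73 and 0.06 in MS_W. C_W70 and C_O15, the lowest of the 10 libraries for the 6 genes, were also the lowest of the 10 for this list. The part of the amount of olfactory bulb tissue in the differences of the 6 genes was not tested.

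The striatal list followed another order. In MS_W minus C_W 7 of its 12 genes met the study criteria as higher (Pde10a, Drd2, Six3, Isl1, Penk, Ppp1r1b and Tac1), with a median of 1.70, and 11 of 12 did so, all past a limma adjusted p of 0.05, without C_O72 and MS_W95. In MS_O minus C_O none of the 12 did. Of all tested genes 2.5% met the criteria as higher and 2.1% as lower in MS_W minus C_W with 12 libraries. Without C_O72 and MS_W95 3.49% met them as higher, and 246 of 21393 passed the adjusted threshold. The list was chosen with earlier results known, so its counts and adjusted p, and those of the lists below, are a description. The mean log2(FPKM + 1) of the striatal list was 4.45 and 5.04 in MS_W31 and MS_W75, 4.23 in MS_O13 and 2.04 to 2.74 in C_W. It was 3.75 and 3.44 in MS_O46 and MS_O78, the highest libraries for the 6 genes. C_O15 and C_O30, at 3.40 and 3.95, were above all C_W libraries for this list, although C_O had the lowest means of the 6 genes. MS_W31 and MS_W75 were thus high for this list where Dlx2, Dlx5, Dlx6 and Sp9 were above all C_W libraries, and its part in those values was not tested. The hypothalamus list was high in the same libraries, at 3.54 and 2.47 in MS_W31 and MS_W75 against 0.16 to 0.33 in C_W. Of its 6 genes 4 met the criteria as higher in MS_W minus C_W (Otp, Oxt, Avp and Hcrt), and 5 did without C_O72 and MS_W95, 3 of them past a limma adjusted p of 0.05. Of 4 thalamus genes, Tcf7l2 and Gbx2 met them as higher with 12 and with 10 libraries. Of 13 cortical interneuron genes, 1 was higher and 2 were lower by the criteria with 12 libraries, Satb1 among the latter, and 1 was higher and 3 were lower with 10. The part of these lists in the values of the 6 genes was not tested either. In MS_O minus C_O 0 hypothalamus and 0 thalamus genes met the criteria, and Adarb2 was the cortical interneuron gene that did. The hindbrain, choroid plexus and general brain lists had 0 genes that met them in either comparison. Of 8 cortical projection neuron genes 4 were lower by the criteria in MS_W minus C_W, with 12 and with 10 libraries, and in MS_O minus C_O 0 were with 12 and 2 with 10. The mean of this list was at 3.78 to 3.94 in C_W and 2.92 and 2.80 in MS_W31 and MS_W75. In C_O72 and MS_W95 it was at 1.61 and 1.68, and the cerebellar list was at 5.34 and 6.96 against 0.66 to 1.59 in the other 10 libraries. Of 5 cerebellar genes 0 met the criteria in either comparison with 12 libraries. With 10 libraries Zic1 met them as higher in MS_W minus C_W, and Cbln1 and Zic1 did in MS_O minus C_O.

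**Figure D5:**
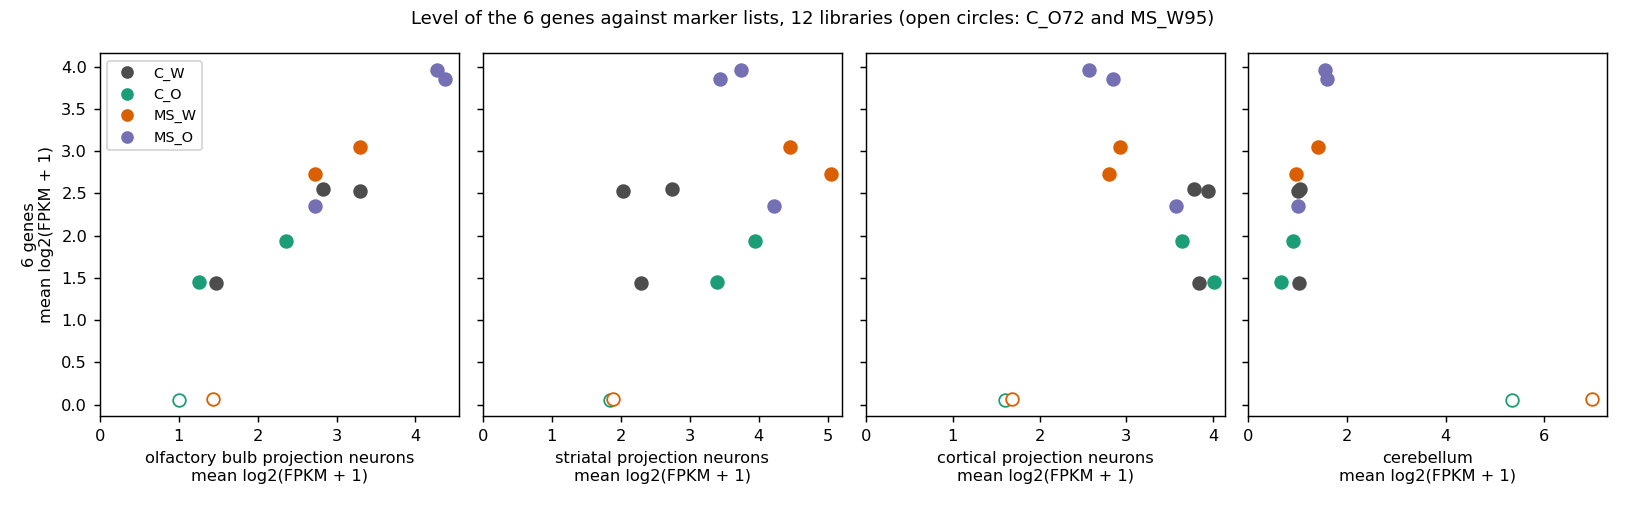
Mean log2(FPKM + 1) of the 6 genes (y axis) against that of 4 marker lists (x axes) in 12 libraries, coloured by group, with C_O72 and MS_W95 as open circles. MS_O46 and MS_O78 are at the top right of the olfactory bulb panel, at 4.28 and 4.38, and the open circles are the lowest points of every panel and the farthest right for the cerebellum.

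Among 13615 genes with a mean FPKM of 1 or more, the 10 most like the mean of the 6 genes over 12 libraries included Dcx (r = 0.993), Snx7 (0.987), Cacna1h (0.979), Col6a1 (0.979), Sox4 (0.978), Panx1 (0.973), Cpne4 (0.972), Cntnap3 (0.971) and Ppp1r12b (0.971). The rho of the 10 lay between 0.888 and 0.979. In all, 34 genes had an r of at least 0.95. Dcx was also the non-member gene nearest to Dlx1, Dlx2 and Sp9 taken singly, and Cntnap3 was nearest to Dlx6 (r = 0.987). Over the 10 libraries 146 genes had an r of at least 0.95, and the first 10 were Fam20c, Meis2, Kcnh2, Rhcg, Tshz1, Lgr5, Dcx, Shisa8, Pcbp3 and Gng4, with r from 0.985 to 0.992. Only Dcx was among the first 10 in both. Kcnh2, which was among these, had an r of -0.08 over 12.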

How the data were processed

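Poly(A) RNA labelled as brain, from 12 mice, was analysed, 3 per group as the labels give them. The study describes whole brain, but 3 of 5 cerebellar list genes (Cbln3, Gabra6 and Pcp2) were near 0 in 10 libraries, while Cbln1 and Zic1 were not. In C_O72 and MS_W95 the cerebellar and hindbrain markers were high and the cortical marker Fezf2 was near 0. Whether these 2 libraries hold another part of the brain was not tested. The authors trimmed reads, aligned them to the mouse genome (mm10) with HISAT, built transcripts with StringTie and took expression values from Ballgown. The submitters' processing notes list cutadapt 1.9, HISAT2 2.0.4 and StringTie 1.3.4d. The deposited FPKM values set genes without an estimate to 0.0001. The estimated counts deposited by the authors were not scaled between libraries and follow coverage. The strand setting and the treatment of multiply aligned reads are not given in the sources used here.

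The 6 genes and 16 gene lists were chosen with earlier results of these data known. Genes named are the 6 genes, list genes, the 10 genes most like them, the nearest gene to each and 2 tested genes on each side. The test was limma 3.58.1 in R 4.3.3, on log2(FPKM + 1) with an intensity trend in 1 fit of 4 groups. It covered 21393 genes whose mean FPKM reached 0.1, with Benjamini-Hochberg adjustment. The fit was also run on simulated data with independent noise, which held no libraries set apart as C_O72 and MS_W95 are. A gene met the study criteria at an unadjusted limma p under 0.05 and a log2 ratio of group means beyond 1. Fold changes on the log2(FPKM + 1) scale understate those of low genes. The mice are separate animals, and the labels give no batch. Alternatives were other pseudocounts, filters and scalings, edgeR 4.0.16 and DESeq2 1.42.0 on the estimated counts, and leaving libraries out. Leaving out C_O72 and MS_W95 for the lists and for the likeness was added after seeing the data. The values of 3 genes are not reported here.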

Additional observations from a re-analysis of the deposited data

How the results depend on the processing

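No paired analysis was possible because the groups share no mouse number. In MS_W minus C_W none of the 6 genes passed an adjusted p of 0.05 in any of 132 pairs of gene and setting by limma, edgeR or DESeq2, and the lowest adjusted p was 0.116, for Dlx6 without C_O72 and MS_W95. The signs of these log2 fold changes were not stable. Without C_O72 and MS_W95 they were 0.39 for Dlx1, 0.64 for Dlx2, 0.88 for Dlx5 and 0.52 for Sp8, against negative values with 12 libraries. Dlx5 was also positive with edgeR (0.28) and DESeq2 (0.28) on the estimated counts. Dlx6 turned negative with a pseudocount of 0.1 (-0.71) or 0.01 (-1.31), with libraries centred on their median (-0.040) and with quantile normalization (-0.0045), and Sp9 with a pseudocount of 0.1 (-0.36) or 0.01 (-0.67) and with centring (-0.0031).

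When each library was left out in turn, the log2 fold change ran from -1.42 to 0.39 for Dlx1, -0.88 to 0.64 for Dlx2, -0.81 to 0.88 for Dlx5, -0.49 to 1.07 for Dlx6, -0.77 to 0.52 for Sp8 and -0.34 to 0.78 for Sp9. The highest value was reached without MS_W95 for each of the 6 genes, and the lowest without MS_W31 for all but Dlx6, for which it was without MS_W75. The median of the 6 genes, -0.21 in MS_W minus C_W with 12 libraries, was -0.79 without MS_W31 and 0.71 without MS_W95. In MS_O minus C_O it ran from 1.63 without C_O72 to 2.75 without MS_O13, in C_O minus C_W from -1.43 to -0.47 and in MS_O minus MS_W from 0.59 to 2.0, and none of these changed sign.

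The pseudocount set the size of these medians, because the values near 0 in C_O72 and MS_W95 weigh more with a smaller one. With 0.01 the median was -1.54 in MS_W minus C_W, 4.17 in MS_O minus C_O, -2.82 in C_O minus C_W and 3.00 in MS_O minus MS_W. With 0.1 it was 3.39 in MS_O minus C_O and -2.01 in C_O minus C_W. In MS_W minus C_W 1 gene passed the adjusted threshold with limma and 1 with edgeR, while the count was 389 with DESeq2, 121 when only C_W and MS_W were fitted, 246 without C_O72 and MS_W95, and 0 (without MS_W75) to 101 (without C_O72) when a library was left out. Of the 10 genes most like the 6 genes, 3 were also among the first 10 by Spearman's rho and 6 by deviations from group means.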
